A study of Mus musculus with 16 samples.

Results

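Pomc and 8 receptors through which the hypothalamus, dopamine, somatostatin, cytokines and GABA act on corticotropes were followed in RNA of AtT-20 cells, which come from a mouse pituitary tumour of corticotropes. The genes were Pomc, the corticotropin-releasing hormone receptor Crhr1, the vasopressin receptor Avpr1b, the dopamine receptor Drd2, the cytokine receptor chains Lifr and Il6st, the somatostatin receptors Sstr2 and Sstr5, and the GABA-B receptor subunit Gabbr1. They were chosen by symbol, and all 9 are among the 24063 genes that both deposited tables list. AtT-20 cells expressing 3x flag-Pax7 and AtT-20 cells expressing 3x flag-Neo, both untreated, were sequenced in 2 libraries each. Cells expressing 3x flag-ER-Pax7, in which 4-hydroxytamoxifen acts on an oestrogen receptor part fused to Pax7, were sequenced untreated (0 h) and after 12, 24 and 96 h of the compound, in 3 libraries each. All were grown in DMEM with 10% serum, and total RNA was depleted of ribosomal RNA. Pax7 and Neo are 1 pair of cell populations, and in the time course the compound and Pax7 activity go together, so neither can be told apart from what else differs between the groups.

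Corticotropes secrete adrenocorticotropin, which they cut from Pomc. Corticotropin-releasing hormone drives Pomc transcription and secretion through Crhr1 and cyclic AMP, vasopressin adds to secretion through Avpr1b and phospholipase C, and leukaemia inhibitory factor acts through Lifr, Il6st and Stat3. Somatostatin restrains secretion through Sstr2 and Sstr5 and inhibitory G proteins. Melanotropes, the other Pomc cells of the pituitary, are specified by Pax7 and held in check by dopamine through Drd2.

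Values of the ER-Pax7 cells are reads over exons, scaled by the authors to 1 total per library, and are called scaled exon reads. Values of Pax7 and Neo cells are FPKM over whole gene bodies, introns included. The tables were normalized separately, so no level is compared between them. The 12 ER-Pax7 libraries held 61374299 to 88698872 recovered reads, and the 4 others an estimated 44300000 to 54700000. Pax7 itself read 2.39 and 2.38 FPKM in Pax7 cells, against 0 and 0.01 FPKM in Neo cells. Of 10 markers of other pituitary hormone cells, 7 stayed under 1 scaled exon read in every ER-Pax7 library (Prl, Tshb, Fshb and Gnrhr at 0), while Lhb, Nr5a1 and Cga reached 3.18, 6.91 and 3.04. Their sum was 8 to 8.37 before induction, 7.38 to 8.99 after 12 h, 5.25 to 7.86 after 24 h and 4.89 to 5.2 after 96 h, and 0.28 to 0.48 FPKM in Pax7 against 0.37 to 0.41 FPKM in Neo cells. Nr5a1 was lower at 24 h (log2 −1.01, limma adjusted p 0.0059) and 96 h (−1.08, adjusted p 0.00143), and Cga was higher at 24 h (0.97, adjusted p 0.0248). Of 8 markers of non-endocrine cells, Ptprc, Cdh5 and Col3a1 stayed under 1 scaled exon read, while Sox2 was present at 55.3 to 78.6, Col1a1 at 16.4 to 28.3 and Cd68 at 6.6 to 11, and Pecam1 and S100b reached 4.23 and 2.21. This list summed to 107 to 119 before induction, 95.7 to 100.3 after 12 h, 94.04 to 102 after 24 h and 83.96 to 93.7 after 96 h, and to 3.47 FPKM in both Pax7 libraries against 3.6 and 3.61 FPKM in Neo cells. Sox2 was lower at 12, 24 and 96 h (at 96 h −0.36, limma adjusted p 5.66e-04) and in Pax7 against Neo cells (−0.24, adjusted p 0.0142), Col1a1 was lower at 96 h (−0.42, adjusted p 0.014), and Cd68 was higher in Pax7 against Neo cells (0.77, adjusted p 0.0193). With 1 library left out, the calls in Pax7 against Neo cells held in 1 of 4 fits for Sox2 and 2 of 4 for Cd68. Those of Cga at 24 h and Col1a1 at 96 h held in 10 of 12 each. Cga averaged only 0.37 scaled exon reads at 0 h and 1.78 at 24 h (TMM-scaled). The part of these markers in the results was not tested. Corticotrope markers were present (Tbx19 at 2675 to 3534 and Neurod1 at 406 to 553 scaled exon reads).

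Per kilobase of exon, the 9 genes ranged widely, with Pomc far above the receptors and 2 receptors nearly absent. In ER-Pax7 cells at 0 h, Pomc stood at 81086 ± 2269 scaled exon reads per kb (mean ± SD, n = 3, as for the values that follow). Il6st had 194 ± 6.76, Sstr2 189 ± 12.4 and Sstr5 172 ± 5.08 scaled exon reads per kb. The Sstr2 libraries overlapped those of Il6st and those of Sstr5, so the place of Sstr2 at 0 h was within the spread. Every Il6st library lay above every Sstr5 library. Gabbr1 followed with 44.3 ± 1.01 and Lifr with 32.7 ± 0.466 scaled exon reads per kb, and the libraries of these genes did not overlap. Crhr1, at 8.1 ± 1.17 scaled exon reads per kb, was the least abundant receptor that passed the filter for testing. At 96 h, Il6st (269 ± 7.2) and Sstr2 (268 ± 7.57) stood together on that scale, and Sstr5 (70.1 ± 2.09) had moved away from them. FPKM over gene bodies also divides by intron length, so its order of genes is not an order of transcript level. Il6st has 5433 exon bases in a gene body of 42790, Sstr2 1527 in 6414 and Sstr5 2728 in 7413. On that scale Sstr2 read highest of the receptors in Pax7 cells, at 7.53 and 7.06 FPKM. Il6st read 3.86 and 3.72 FPKM there and Sstr5 2.7 and 2.81 FPKM. In Neo cells, Sstr5 read highest at 6.57 and 6.61 FPKM, before Sstr2 at 5.94 and 5.66 FPKM and Il6st at 4.3 and 3.94 FPKM.

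**Figure D1:**
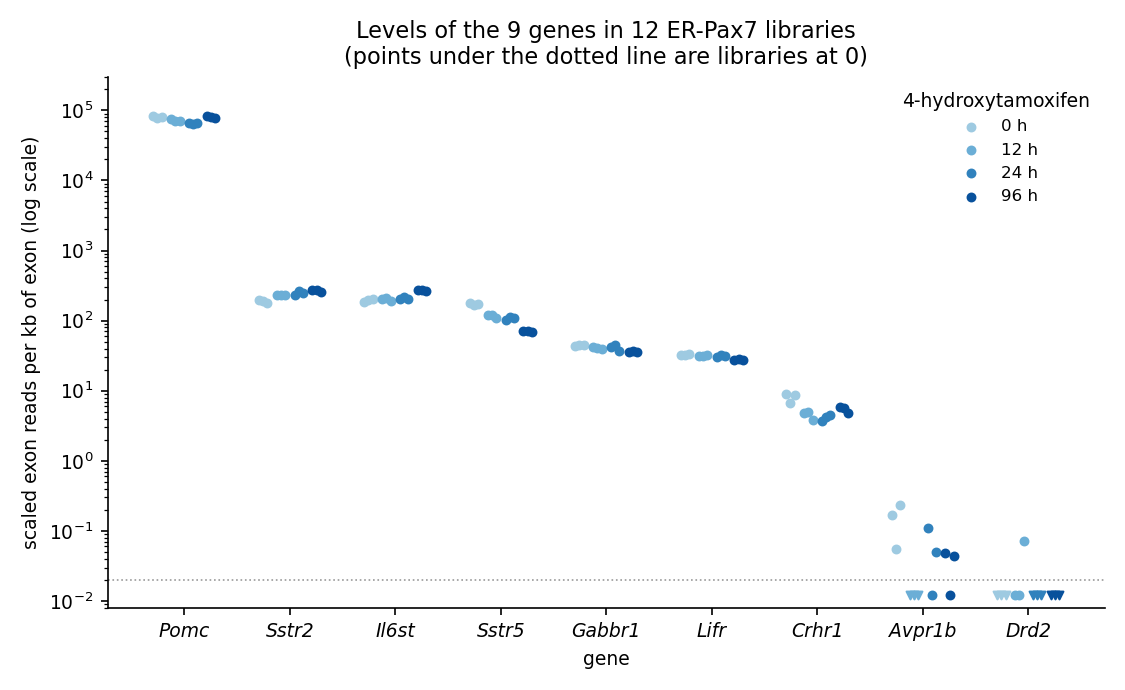
Scaled exon reads per kb of exon (log scale) of the 9 genes in each of the 12 ER-Pax7 libraries, coloured by hours of 4-hydroxytamoxifen, with libraries at 0 placed under the dotted line. Pomc lies far above every receptor, 6 receptors have reads in every library, and Avpr1b and Drd2 lie at or near 0.

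Differences were tested with limma on log2 values across all genes of a table, with p-values adjusted over all of them, and a gene is called where its adjusted p is under 0.05. Of the 9 genes, 7 passed the filter on low values and were tested, and Avpr1b and Drd2 did not. After 96 h of 4-hydroxytamoxifen, 6 of the 7 differed from 0 h (Il6st and Sstr2 higher, Sstr5, Lifr, Gabbr1 and Crhr1 lower), where 33.7% of all 15188 genes tested were called. At 12 h the called genes were 3 (Sstr2 higher, Sstr5 and Crhr1 lower; 6.49% of all genes), and at 24 h they were 4 (those and Pomc, lower; 13.5%). In Pax7 against Neo cells, 5 of 7 were called (Sstr2 higher, Sstr5, Crhr1, Gabbr1 and Il6st lower), where 36.7% of 13393 genes were. Between 96 h and 24 h, 5 of 7 differed (12.7% of all genes), and over the 4 times together all 7 did (30.3%). Limma called none of the 7 between 24 h and 12 h, and 26 genes in all (0.171%). At an unadjusted p under 0.05 that comparison held 1329 genes (8.75%), Pomc and Sstr5 among them, edgeR on recovered reads called 0 of the 7, and DESeq2 called 1 (Pomc). The median log2 change of the 7 tested genes at 96 h was −0.26, beside 0 over all genes, and in Pax7 against Neo cells it was −0.19, beside 0.01.

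**Figure D2:**
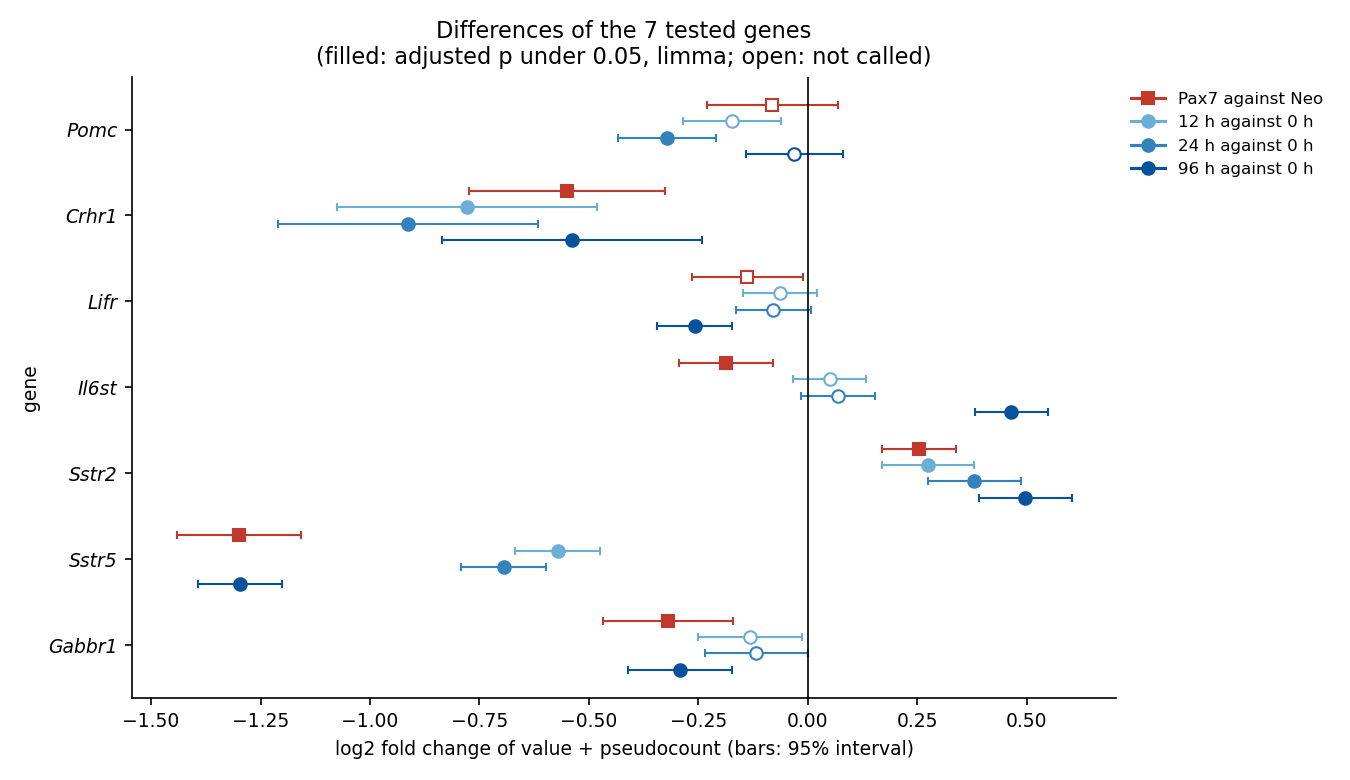
Log2 fold changes of the 7 tested genes with 95% intervals, for Pax7 against Neo cells (squares) and for ER-Pax7 cells at 12, 24 and 96 h against 0 h (circles). Filled symbols were called by limma. Sstr5 lies left of 0 and Sstr2 right of 0 in all 4 comparisons, while Il6st lies left of 0 in Pax7 cells and right of it at 96 h.

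Pomc dipped during the first day of induction and stood near its starting level at 96 h. The gene lies on chromosome 12 (mm10, 3954945 to 3960643, plus strand). The 250 bases before its start site are shown from RefSeq (GRCm38.p6, chr12:3954695-3954944, plus strand). Capitals mark the E-box letters CANNTG and the TATA box letters TATAAA.
Pomc upstream: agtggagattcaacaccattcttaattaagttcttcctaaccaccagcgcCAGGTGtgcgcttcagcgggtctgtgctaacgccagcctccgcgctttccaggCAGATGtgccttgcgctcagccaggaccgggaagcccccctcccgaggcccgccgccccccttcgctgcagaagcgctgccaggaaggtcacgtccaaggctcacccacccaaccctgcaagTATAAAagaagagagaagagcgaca
E-boxes began 200 and 147 bases before the start site and the TATA box 25 bases before it. The letters AAGGTCA, part of the Nur factor response motif, began 63 bases before it and stand in lower case. On either strand, CANNTG occurred in 72.3%, TATAAA in 13.6% and AAGGTCA in 4.72% of all 32851 windows of 300 bases around gene starts (250 before, 50 after).

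Pomc had 95047, 89908 and 93089 scaled exon reads at 0 h. The values were 85404, 81206 and 80712 at 12 h, and 75308, 73885 and 76013 at 24 h. At 96 h they were 95211, 90234 and 87840. Every 24 h library lay below every 12 h library, every 12 h library lay below every 0 h library, and the 96 h libraries overlapped those of 0 h. Relative to 0 h, Pomc fell by 0.32 log2 units at 24 h (SE 0.05, limma adjusted p 2.14e-04). At 12 h the log2 difference was −0.17 (95% interval −0.28 to −0.06) and missed the threshold (limma adjusted p 0.0564). It passed with edgeR (adjusted p 0.00388) and DESeq2 (adjusted p 1.47e-04) on the recovered reads. From 24 h, Pomc rose by 96 h by 0.29 (SE 0.05, limma adjusted p 9.15e-04). The difference at 96 h against 0 h was −0.03 (95% interval −0.14 to 0.08, limma adjusted p 0.695). In bulk RNA, fewer cells making a transcript and less of it per cell cannot be told apart.

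In Pax7 cells Pomc read 2390 and 2447 FPKM, against 2471 and 2396 FPKM in Neo cells. As deposited, the libraries of the groups overlapped. Divided by the TMM factors used for the test, they did not (2286 and 2433 in Pax7 cells, 2490 and 2499 in Neo cells). The log2 difference was −0.08 and did not pass (95% interval −0.23 to 0.07, limma adjusted p 0.304).

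Crhr1, through which corticotropin-releasing hormone acts, was present at a low level, and was lower at each time of induction and in Pax7 cells. It lies on chromosome 11 (mm10, 104132882 to 104175518, plus strand). The gene had 183, 140 and 256 recovered reads in the 0 h libraries, which are 21.5, 16.3 and 20.8 scaled exon reads. At 12 h it had 11.7, 12.1 and 9.2 scaled exon reads, at 24 h 8.9, 10.2 and 10.9, and at 96 h 13.9, 13.7 and 11.8. Every library of the later times lay below every 0 h library. Crhr1 fell by 0.78 log2 units at 12 h (SE 0.14, limma adjusted p 0.0011), by 0.91 at 24 h (SE 0.14, adjusted p 1.13e-04) and by 0.54 at 96 h (SE 0.14, adjusted p 0.00579). Between 24 h and 96 h the log2 difference was 0.37, which did not pass (95% interval 0.08 to 0.67, limma adjusted p 0.0936). In the authors' deposited table the Crhr1 differences from 0 h do not pass (FDR 0.302 at 12 h, 0.069 at 24 h and 0.345 at 96 h).

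In Pax7 cells Crhr1 read 0.05 and 0.05 FPKM, against 0.11 and 0.12 FPKM in Neo cells. These are an estimated 100 and 116 reads in Pax7 cells, against 291 and 297 in Neo cells, and the deposited values are rounded to 0.01 FPKM. The log2 difference was −0.55 (SE 0.08, limma adjusted p 0.0142). It was −1.12 with a pseudocount of 0.01 FPKM and −0.09 with 1 FPKM, and leaving out any 1 library ended the call (adjusted p 0.0547 to 0.0704).

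**Figure D3:**
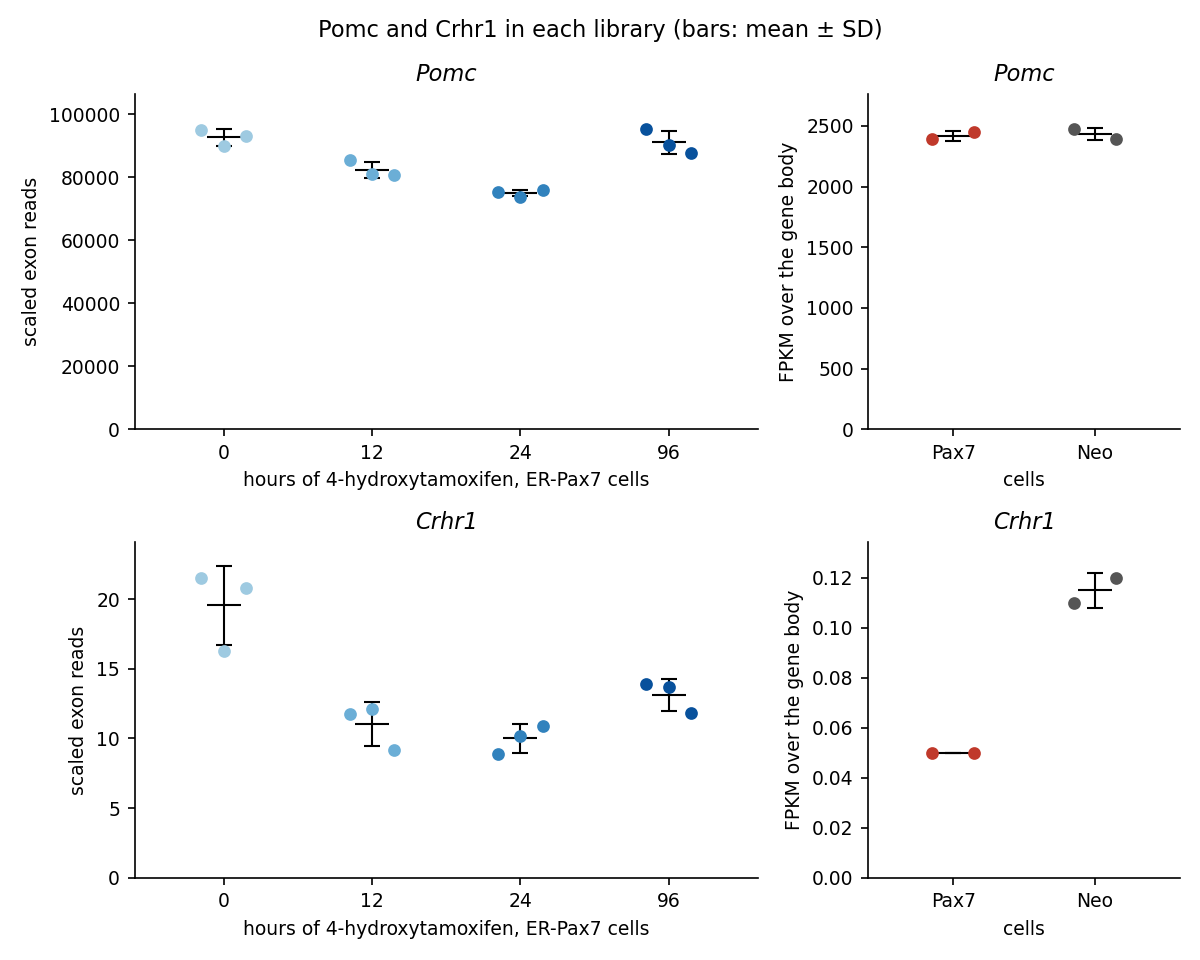
Deposited values of Pomc (top) and Crhr1 (bottom) in each library: scaled exon reads of ER-Pax7 cells by hours of 4-hydroxytamoxifen (left) and FPKM of Pax7 and Neo cells (right), with mean ± SD and times evenly spaced. Pomc is lowest at 24 h and back among the 0 h libraries at 96 h. Crhr1 stays below its 0 h libraries at every later time.

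The 2 receptors best known for vasopressin on corticotropes and dopamine on melanotropes were close to absent. Avpr1b (chromosome 1, mm10, 131599114 to 131612000) had 6, 2 and 12 reads in the 0 h libraries. It had 0 in each 12 h library, 4, 0 and 2 at 24 h, and 2, 0 and 2 at 96 h. These are 30 reads in all, of 834562621, and too few for the test. It was listed at 0 and 0.01 FPKM in Pax7 cells, against 0 in both Neo libraries. Drd2 (chromosome 9, mm10, 49340662 to 49407214) had 1 read in the 12 ER-Pax7 libraries together, in a 12 h library. It had 0 of 220754234 reads at 96 h and 0 of 212029732 at 0 h, and a count of 0 allows up to 3 reads in each of these totals. It was listed at 0 FPKM in both Pax7 and both Neo libraries. These limits cover counting error only, since reads are not independent molecules. Of the other melanotrope markers, 3 of 4 tested were higher at 96 h (Oacyl, Pcsk2 and Esm1), beside 33.7% of all genes called. In Pax7 against Neo cells 3 of 3 were higher (Pcsk2, Oacyl and Megf11), beside 36.7% of all genes called. Megf11 was not called at 96 h. Esm1 averaged only 1.2 scaled exon reads at 0 h and 2.89 at 96 h, and its call held in 10 of the 12 fits without 1 library. Pcsk2, the prohormone convertase of melanotropes, was higher by 1.46 log2 units at 96 h (limma adjusted p 1.59e-15) and by 3.00 in Pax7 against Neo cells (adjusted p 7.40e-04).

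The somatostatin receptors moved in opposite directions. Sstr5, the receptor that somatostatin analogues of the pasireotide type bind strongly, lies on chromosome 17 (mm10, 25489875 to 25497288, minus strand). It had 482, 455 and 472 scaled exon reads at 0 h, and 325, 325 and 301 at 12 h. At 24 h it had 281, 302 and 297, and at 96 h 193, 196 and 185. Libraries of 0 h lay above all others and those of 96 h below all others. Sstr5 fell by 0.57 log2 units at 12 h (SE 0.05, limma adjusted p 3.73e-08), by 0.69 at 24 h (adjusted p 9.45e-10) and by 1.30 at 96 h (SE 0.05, adjusted p 1.50e-14). Between 24 h and 96 h alone it fell by 0.60 (SE 0.05, limma adjusted p 3.09e-08). In Pax7 cells it read 2.7 and 2.81 FPKM, against 6.57 and 6.61 FPKM in Neo cells, and was lower by a log2 difference of −1.30 (SE 0.05, limma adjusted p 0.00197). It was the only member whose call in Pax7 against Neo cells held without each of the 4 libraries (adjusted p 0.0222 to 0.0256). In the authors' deposited table the same log2 difference is −1.19, with an FDR of 1.

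Sstr2, the receptor that octreotide binds, lies on chromosome 11 (mm10, 113619481 to 113625895, plus strand). The 250 bases before its RefSeq start (GRCm38.p6, chr11:113619077-113619326, plus strand) hold the full cyclic AMP response element TGACGTCA, in capitals, 58 bases before the start site.
Sstr2 upstream: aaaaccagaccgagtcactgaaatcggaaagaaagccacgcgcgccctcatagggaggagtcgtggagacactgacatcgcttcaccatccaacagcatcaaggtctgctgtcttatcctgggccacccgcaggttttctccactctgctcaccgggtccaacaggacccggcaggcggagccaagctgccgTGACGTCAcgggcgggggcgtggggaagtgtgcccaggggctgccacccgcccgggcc
These 8 letters read the same on both strands and contain the shorter form TGACG, also in capitals, in both directions. TGACGTCA occurred in 1.79% and TGACG in 20.8% of the 32851 windows on either strand, and Sstr2 was the only member with a window that held either. Of the 9 genes, 7 have such a window (Pomc, Crhr1, Drd2, Lifr, Il6st, Sstr2 and Gabbr1), and Sstr5 and Avpr1b are named only.

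Sstr2 had 305, 293 and 268 scaled exon reads at 0 h, and 351, 351 and 349 at 12 h. At 24 h it had 358, 407 and 378, and at 96 h 414, 418 and 396. Every later library lay above every 0 h library, while those of 24 h and 96 h overlapped. Sstr2 rose by 0.27 log2 units at 12 h (SE 0.05, limma adjusted p 0.00121), by 0.38 at 24 h (adjusted p 1.76e-05) and by 0.50 at 96 h (SE 0.05, adjusted p 1.68e-07). The step between 24 h and 96 h was 0.12 (95% interval 0.01 to 0.22, limma adjusted p 0.15). In Pax7 cells it read 7.53 and 7.06 FPKM, against 5.94 and 5.66 FPKM in Neo cells, and was higher by 0.25 log2 units (SE 0.03, limma adjusted p 0.00945). That call was lost without Pax7 replicate 1 or Pax7 replicate 2 (adjusted p up to 0.0619). In GENCODE M21, Slc39a11, a zinc transporter gene, spans Sstr2 on the opposite strand, and counting did not use strand. In the deposited tables Slc39a11 ends before Sstr2 begins. Its log2 difference at 96 h was 0.10 (limma adjusted p 0.0933), and it was higher by 0.27 in Pax7 against Neo cells (adjusted p 0.0176), where it read 0.69 and 0.68 FPKM in Pax7 and 0.54 and 0.51 FPKM in Neo cells. Its part in the Sstr2 values was not tested.

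Set against each other per kb of exon, Sstr2 and Sstr5 were nearly equal at 0 h and Sstr2 led at 96 h. The Sstr2 to Sstr5 ratio averaged 1.1 ± 0.07 before induction, 1.98 ± 0.0808 after 12 h, 2.31 ± 0.0751 after 24 h and 3.82 ± 0.01 after 96 h (SD, 3 libraries each). No library of any time overlapped one of another time. The exact permutation test (two-sided) gave p = 0.1 for 96 h against 0 h, the smallest that 3 against 3 libraries allow. In FPKM over gene bodies, introns included, a ratio of 1 does not mark equal transcript. On that scale the ratio was 2.79 and 2.51 in Pax7 cells, against 0.904 and 0.856 in Neo cells (exact permutation p = 0.333, the smallest that 2 against 2 allow). Of their relatives, Sstr3 fell at 12, 24 and 96 h, at 96 h by 0.97 log2 units (limma adjusted p 3.52e-10). Its log2 difference in Pax7 against Neo cells was −0.04 (limma adjusted p 0.742). Sstr1, Sstr4 and somatostatin (Sst) were not tested. Cort, the somatostatin-like peptide cortistatin, was lower by a log2 difference of −0.45 in Pax7 against Neo cells (limma adjusted p 0.0132), a call that ended with any 1 of the 4 libraries left out.

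**Figure D4:**
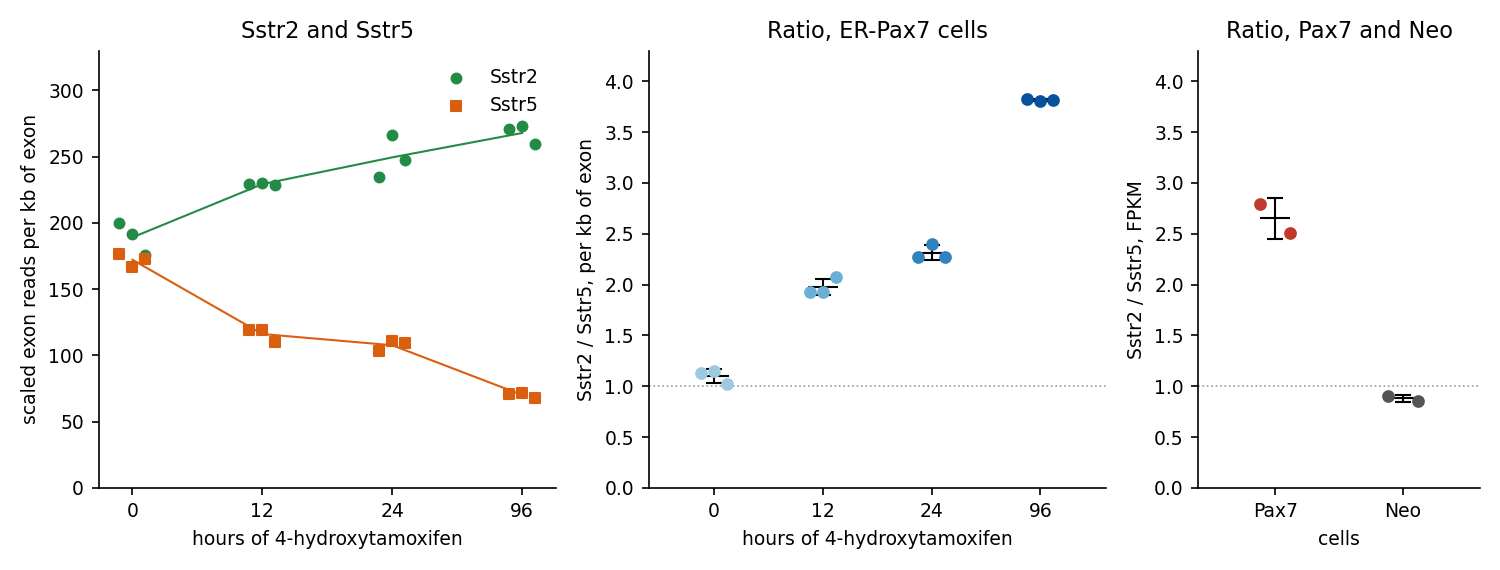
Sstr2 and Sstr5 in scaled exon reads per kb of exon by hours of 4-hydroxytamoxifen (left, points are libraries and lines join means), and the Sstr2 to Sstr5 ratio in ER-Pax7 cells (middle) and in Pax7 and Neo cells (right), with mean ± SD. The ratio per kb of exon goes up at each time to 3.82 ± 0.01 at 96 h. The ratio of FPKM over gene bodies, where 1 does not mark equal transcript, is higher in Pax7 than in Neo cells.

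The chains of the leukaemia inhibitory factor receptor moved in opposite directions by 96 h, Il6st up and Lifr down. Il6st, the chain shared by receptors of the interleukin-6 family, lies on chromosome 13 (mm10, 112464070 to 112506860, plus strand). It had 1017, 1063 and 1089 scaled exon reads at 0 h, 1102, 1145 and 1044 at 12 h, and 1098, 1169 and 1100 at 24 h. At 96 h it had 1502, 1464 and 1424. As deposited, libraries of 12 h overlapped those of 0 h and 24 h, every 24 h library lay above every 0 h library, and those of 96 h lay above all others. After TMM scaling, 24 h and 0 h overlapped too (lowest 1087 at 24 h, highest 1093 at 0 h). Il6st rose by 0.46 log2 units at 96 h (SE 0.04, limma adjusted p 1.52e-08), while the differences at 12 h (0.05, adjusted p 0.628) and 24 h (0.07, adjusted p 0.301) did not pass. Between 24 h and 96 h it rose by 0.40 (SE 0.04, limma adjusted p 1.21e-06).

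In Pax7 cells Il6st read 3.86 and 3.72 FPKM, against 4.3 and 3.94 FPKM in Neo cells, so its direction there was the other one. The log2 difference of −0.19 (SE 0.04, limma adjusted p 0.029) was no longer called without any 1 of the 4 libraries (adjusted p 0.0521 to 0.125) or with the deposited totals (adjusted p 0.212).

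Lifr, the chain that binds the cytokine itself, lies on chromosome 15 (mm10, 7140542 to 7197489, plus strand). It had 311, 315 and 320 scaled exon reads at 0 h, 298, 299 and 310 at 12 h, and 293, 310 and 303 at 24 h. At 96 h it had 261, 270 and 261. The 96 h libraries lay below all others. Lifr fell by 0.26 log2 units at 96 h (SE 0.04, limma adjusted p 4.54e-05), and differences at 12 h (−0.06, adjusted p 0.484) and 24 h (−0.08, adjusted p 0.236) did not pass. In Pax7 cells it read 0.55 and 0.52 FPKM, against 0.59 and 0.55 FPKM in Neo cells, a log2 difference of −0.14 that did not pass (95% interval −0.27 to −0.01, limma adjusted p 0.0849).

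Gabbr1, a subunit of the inhibitory GABA-B receptor, was modestly lower late in induction. It lies on chromosome 17 (mm10, 37045966 to 37074305, plus strand). It had 192.5, 198.3 and 201.5 scaled exon reads at 0 h and 186, 181 and 175 at 12 h. At 24 h it had 190, 198 and 166, and at 96 h 160, 167 and 159. The 96 h libraries lay below those of 0 h and 12 h, and 1 of the 24 h libraries overlapped them. Gabbr1 fell by 0.29 log2 units at 96 h (SE 0.06, limma adjusted p 4.40e-04), and the differences at 12 h (−0.13, adjusted p 0.219) and 24 h (−0.12, adjusted p 0.201) did not pass. Its step between 24 h and 96 h, −0.17 (SE 0.06, limma adjusted p 0.0484), was called in 3 of the 12 fits that left out 1 library. In Pax7 cells it read 0.77 and 0.79 FPKM, against 0.94 and 0.96 FPKM in Neo cells, and was lower by a log2 difference of −0.32 (SE 0.05, limma adjusted p 0.0185). Leaving out any 1 of the 4 libraries ended this call. Gabbr2, its partner subunit, was lower at 96 h by a log2 difference of −0.19 (limma adjusted p 0.0412), called in 8 of the 12 fits without 1 library.

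Genes downstream of these receptors were taken from lists by pathway, and each count is given beside the share of all genes called in the same comparison. In the arm of corticotropin-releasing hormone, from stimulatory G protein to cyclic AMP-dependent factors, 13 of 24 tested genes differed at 96 h, 7 higher and 6 lower (median log2 0.07), where 33.7% of all genes were called. Of these calls, 8 held without each single library. Nr4a2, a Nur-type nuclear receptor that cyclic AMP induces, was lower by 0.44 log2 units (limma adjusted p 9.27e-07). It averaged 353 ± 13.4 scaled exon reads before induction, 239 ± 12.4 after 12 h, 230 ± 12.7 after 24 h and 259 ± 7.92 after 96 h (SD, n = 3, TMM-scaled). Prkar2b, a regulatory subunit of protein kinase A, was higher by 0.29 (adjusted p 2.43e-06), Crem, a cyclic AMP-responsive factor, higher by 0.57 (adjusted p 4.52e-06), and Creb1 lower by a log2 difference of −0.30 (adjusted p 9.22e-06). At 12 h, 5 of 24 were called (4 higher, 1 lower; 6.49% of all genes) and at 24 h 6 (3 and 3; 13.5%). Between Pax7 and Neo cells 7 of 21 differed, 5 higher and 2 lower, where 36.7% of all genes were called, so this share lay near the background. The call of Prkar1a (log2 0.71, limma adjusted p 0.00219) was 1 of those 7 and the only that held without each single library. Crem (0.68, adjusted p 0.00917) was higher and Creb1 (−0.34, adjusted p 0.00771) lower there too.

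In the vasopressin arm of phospholipase C, inositol trisphosphate and protein kinase C, 5 of 11 tested genes were lower at 96 h and none higher (limma; 33.7% of all genes were called in either direction). The calls were those of Itpr3, an inositol trisphosphate receptor (log2 −0.47, adjusted p 1.04e-08), Prkce (−0.34, adjusted p 1.74e-04), Gnaq (−0.20, adjusted p 6.98e-04), Plcb3 (−0.22, adjusted p 0.00185) and Prkcd (−0.17, adjusted p 0.0109). The median of the list was −0.04, and all but the call of Prkcd held without each single library. Between Pax7 and Neo cells 1 of 7 was called (36.7% of all genes), Prkcd, lower (limma log2 −0.35, adjusted p 0.0248), a call lost without Neo replicate 1 or either Pax7 library.

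In the inhibitory G protein arm, which somatostatin, dopamine and GABA-B receptors share, 8 of 13 tested genes differed at 96 h, 3 higher and 5 lower, beside 33.7% of all genes. All 8 calls held without each single library. Rgs4, which speeds the switching off of inhibitory and Gq-type G proteins, averaged 384 ± 13.2 scaled exon reads before induction, 508 ± 35.1 after 12 h, 656 ± 29.9 after 24 h and 1141 ± 15.3 after 96 h (SD, n = 3, TMM-scaled). Rgs4 was called at 12, 24 and 96 h, and was higher by 1.57 log2 units at 96 h (limma adjusted p 8.12e-16) and by 1.26 in Pax7 against Neo cells (adjusted p 0.00138). Gnai2, an inhibitory G protein subunit, was lower at 96 h (log2 −0.38, limma adjusted p 9.85e-07) and in Pax7 against Neo cells (−0.35, adjusted p 0.00961). The potassium channel subunit Kcnj6 (−0.46, adjusted p 1.14e-04) and the receptor kinase Adrbk2 (−0.21, adjusted p 6.95e-04) were lower at 96 h. Between Pax7 and Neo cells 6 of 13 were called, 5 higher and 1 lower, beside 36.7% of all genes, and that of Rgs4 alone held without each single library.

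Among ligands and signal carriers of the leukaemia inhibitory factor and interleukin-6 family, 11 of 18 tested genes differed at 96 h, 4 higher and 7 lower (median log2 −0.11; 33.7% of all genes called). Lif itself averaged 39.8 ± 5.1 scaled exon reads before induction, 51.6 ± 2.92 after 12 h, 54 ± 4.25 after 24 h and 85.1 ± 4.57 after 96 h (SD, n = 3, TMM-scaled). It was higher by 1.08 log2 units at 96 h (limma adjusted p 1.07e-08) and by 1.49 in Pax7 against Neo cells (adjusted p 0.00242). Stat3, which carries the signal to the nucleus, was higher in both, by 0.48 (adjusted p 1.64e-08) and 0.45 (adjusted p 0.00821). Socs2 and Socs3, feedback inhibitors of cytokine receptors, were lower at 96 h by log2 differences of −0.88 (limma adjusted p 3.90e-07) and −0.39 (adjusted p 3.82e-05). Between Pax7 and Neo cells 8 of 17 were called (36.7% of all genes), 3 higher and 5 lower, 5 of which held without each single library. Besides Lif and Stat3 these included Il11ra1 (−0.70, adjusted p 0.00276) and Cntfr (−0.82, adjusted p 0.00533).

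Among factors known to act on Pomc transcription, 7 of 15 tested differed at 96 h, 5 higher and 2 lower (median log2 0.07; 33.7% of all genes called). Tbx19, the T-box factor of Pomc cells, was higher by 0.28 log2 units (limma adjusted p 1.23e-05) and Neurod1 by 0.30 (adjusted p 1.08e-04). Nr3c1, the glucocorticoid receptor through which glucocorticoids repress Pomc, was lower at 96 h (−0.26, limma adjusted p 2.12e-05) and in Pax7 against Neo cells (−0.54, adjusted p 0.00389). Between Pax7 and Neo cells 10 of 14 were called (36.7% of all genes), 4 higher and 6 lower, of which Nr3c1 and Etv1 (0.95, adjusted p 0.00233) held without each single library. At 24 h, when Pomc was lowest, 2 of 15 were called, beside 13.5% of all genes, so this share lay near the background. Both were higher, among them Neurod1 (0.23, limma adjusted p 0.00457).

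Most relatives of the receptors were not detected well enough to test. Of 12 other peptide hormone receptors, 3 were tested in ER-Pax7 cells. Among other dopamine and adrenergic receptors, Adra2a was higher in Pax7 against Neo cells (log2 1.25, limma adjusted p 0.0126), a call lost without either Pax7 library. Of 7 genes of melanocortin receptors and their accessory proteins, 3 were tested at 96 h, Mc1r (limma adjusted p 0.843) and the accessory protein genes Mrap (adjusted p 0.837) and Mrap2 (adjusted p 0.867). Mc1r was higher in Pax7 against Neo cells (0.56, limma adjusted p 0.0401), a call that ended with any single library left out.

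**Figure D5:**
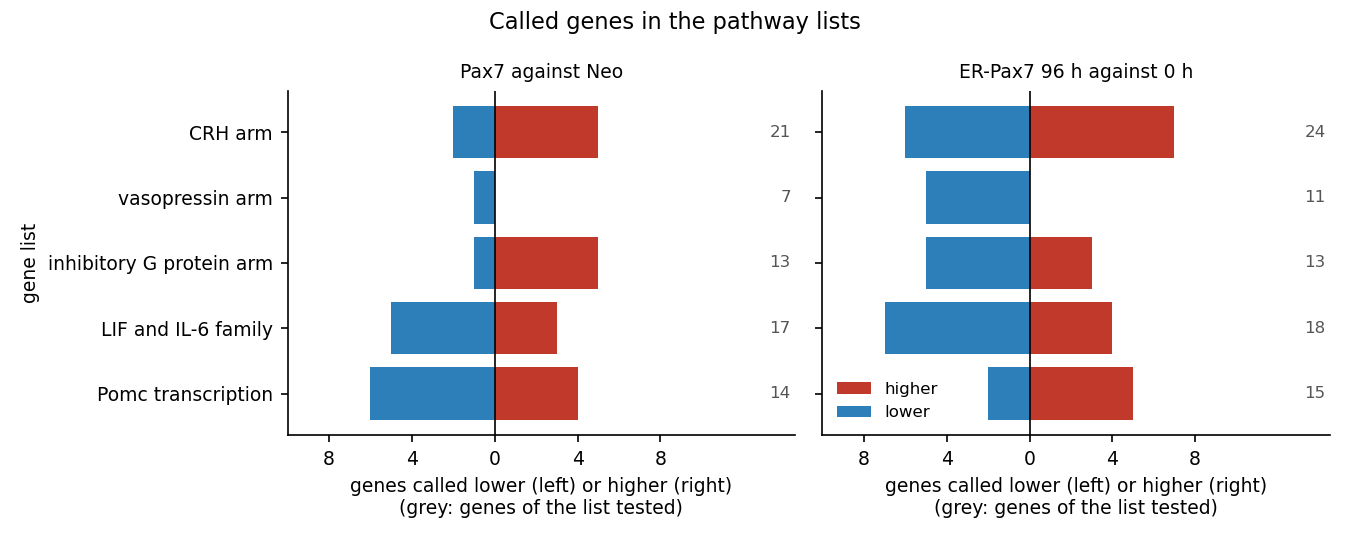
Number of genes called higher (right, red) or lower (left, blue) by limma in 5 pathway lists, for Pax7 against Neo cells (left panel) and ER-Pax7 cells at 96 h against 0 h (right panel), with the number tested in grey. At 96 h the vasopressin arm has 5 genes lower and none higher, and the arm of corticotropin-releasing hormone 7 higher and 6 lower.

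The genes whose course was most like that of Pomc were found by the root mean square difference in log2 change from 0 h over the 12 ER-Pax7 libraries, among 9379 genes with a mean of at least 100 scaled exon reads. They were Vgf, a granule peptide precursor (0.0478), Wnt10a (0.0484), the protein disulfide isomerase genes Pdia6 (0.0575) and P4hb (0.0666), and Athl1 (0.0623), where the median over all genes compared was 0.207. The log2 change of Vgf was −0.17 at 12 h, −0.34 at 24 h and 0.01 at 96 h. In Pax7 against Neo cells, Pdia6 (log2 0.57, limma adjusted p 0.00435) and P4hb (0.40, adjusted p 0.0065) were higher, where the Pomc difference was −0.08. The genes most like Crhr1 were Hmgcs1, an enzyme of cholesterol synthesis (0.225), Dmkn (0.226), Riiad1 (0.231), Nr4a2 (0.243) and Gucy2c (0.253), where the median was 0.68. Crhr1 itself averaged 9.93 to 19.6 scaled exon reads by time, below the 100 required of the genes compared. Its own spread between libraries therefore enters these distances. Their log2 changes at 96 h ran from −0.44 (Nr4a2) to −0.91 (Gucy2c), beside −0.54 for Crhr1. In Pax7 against Neo cells, Dmkn (log2 −0.96, limma adjusted p 0.00756) and Riiad1 (−0.63, adjusted p 0.00393) were lower, and Hmgcs1, Nr4a2 and Gucy2c were not called.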

How the data were processed

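RNA without ribosomal RNA was read as pairs of 50 bp, per the labels' protocols. The tools TopHat, HOMER and edgeR, with no versions, and the build mm10 (GRCm38) are given in the submitters' processing notes. For ER-Pax7 the deposited signal values are reads over exons of each RefSeq gene (HOMER, no strand option), scaled by the authors to 1 total per library (read from the file headers and values). For Pax7 and Neo the authors deposited FPKM over gene bodies, per the file headers. The authors' deposited log2 folds, p-values and FDR come from edgeR through HOMER, per the file headers. Groups and numbers of libraries follow the labels. Whether libraries of a group came from different cultures is not stated, so p-values measure only the spread between these libraries.

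Genes reaching 1 scaled exon read in 3 libraries (15188) or 0.1 FPKM in 2 (13393) were divided by TMM factors (edgeR 4.0.16) and tested as log2(value + pseudocount of 1 read or 0.1 FPKM) with limma 3.58.1 (R 4.3.3, empirical Bayes with trend, Benjamini-Hochberg over all genes, threshold 0.05), with the 12 ER-Pax7 libraries in 1 model. Fold changes on this scale understate changes of low genes. Neither table holds raw counts, so no count test was the main one. Low values of the ER-Pax7 table, up to 20, were whole multiples of 1 read (100.0% within 0.1 reads), which gave whole reads for edgeR and DESeq2 1.42.0 as alternatives. Mates of 1 fragment may be counted separately. Reads of the FPKM table were estimated from whole multiples among its short genes. The fits were tested on simulated data: changes were recovered, but in simulated Pax7 and Neo values the share of false calls was above the threshold. A variance trend on the estimated number of reads brought it under the threshold and was added as an alternative. All 9 members are named. From each pathway list the called genes were named, at most 4 a list and comparison by adjusted p, and a gene named in 1 comparison may be given in others. Prkcd at 96 h and the melanotrope markers Pcsk2, Oacyl, Esm1 and Megf11 were added after their values were seen. The members and lists were chosen with earlier results of these data known. Promoter windows are from RefSeq. Some genes of the pathway lists are not reported here.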

Additional observations from a re-analysis of the deposited data

Results flagged for a closer look

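Of 92 listed genes tested in both tables, 6 (6.52%) were called in opposite directions in the constitutive and the inducible cells, with no overlap of the libraries in either, beside 276 of all 12992 genes tested in both (2.12%). A further 26 listed genes (28.3%), beside 1998 of all genes (15.4%), were called in the same direction with no overlap. The difference between the systems was not tested, since the tables were normalized separately. Il6st was lower in Pax7 against Neo cells (log2 −0.19) and higher at 96 h against 0 h (0.46). Cntfr was lower (−0.82) and higher (0.38), Pitx1 lower (−0.23) and higher (0.25), and Neurod1 lower (−0.20) and higher (0.30). Socs3 was higher (0.21) and lower (−0.39), and Adcy1 higher (0.34) and lower (−0.09). In Pax7 against Neo cells, the call of Cntfr held without each of the 4 libraries and those of the other 5 did not. At 96 h, that of Adcy1 held in 4 and that of Pitx1 in 11 of the 12 fits without 1 library, and the other 4 in all.

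For 5 members the change from 0 h differed between 96 h and 24 h by limma on the difference itself. That difference was 0.29 log2 units for Pomc, 0.40 for Il6st, −0.60 for Sstr5, −0.18 for Lifr and −0.17 for Gabbr1. The 0 h libraries are common to both changes and cancel in this difference. In the authors' deposited edgeR results, 96 h against 24 h does not pass for Lifr (FDR 0.182) and Gabbr1 (FDR 0.529).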

How the results depend on the processing

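Of 448 log2 values of members with 1 library left out, 418 kept direction and side of the threshold, 23 lost a call and 7 turned direction; none of the 7 was called. Of 403 values under other alternatives, 391 were kept, 7 gained and 5 lost a call. Directions turned only for 24 h against 12 h with 1 library left out (Gabbr1 −0.035 to 0.085, Il6st −0.019 to 0.053, Lifr −0.032 to 0.008). Pomc at 12 h against 0 h gained a call with a pseudocount of 0.1 (log2 −0.174, adjusted p 0.0228), a filter of 10 scaled exon reads (−0.171, 0.0436), edgeR (−0.173, 0.00388) and DESeq2 (−0.170, 1.47e-04), and at 24 h against 12 h with DESeq2 (−0.148, 0.0146). For 24 h against 12 h, the 26 genes called became 17 without a filter, 16 with only those times and 98 with DESeq2, and 11 to 31 with 1 library left out. Without 1 library, 1269 to 2115 genes were called at 96 h against 24 h. Between Pax7 and Neo cells 1505 to 2418 genes (4911 with all libraries) and 1 to 2 members were, the fewest without Pax7 replicate 1. A filter of 1 FPKM left 3 members called there. Crhr1 and Gabbr1, below 1 FPKM in every library, were not tested under it. On deposited totals, 2600 genes were higher and 1241 lower in Pax7 cells (67.7% higher), against 2475 and 2436 (50.4%) with TMM factors. The variance trend on estimated reads, chosen after seeing the data, called 6581 genes and 6 members, Lifr added (adjusted p 0.0288). The Gabbr1 step between 24 h and 96 h was lost under 3 settings besides single libraries. Deviations of same-numbered ER-Pax7 libraries correlated at −0.082 to 0.144, beside −0.128 to 0.098 for differently numbered ones. In Pax7 and Neo cells the values were 0.038 and −0.038, whose signs 2 libraries per group force to be opposite. Whether same-numbered libraries share more than a number was not tested. With the numbers as a replicate block, Pomc at 12 h was called (−0.174, 0.00777), Il6st in Pax7 cells was not (0.0619), and 54 genes were called at 24 h against 12 h. The causes were not tested. Crhr1, Avpr1b and Drd2 had few reads, and the part of depth in this was not tested.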
